A study of Mus musculus with 2 samples.

Results

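The genes described are Nes, Vim, Des, Synm and Sync, which encode the intermediate filament proteins nestin, vimentin, desmin, synemin and syncoilin, together with Plec, Ahnak, Flna and Flnc, which encode the large cytoskeletal linkers plectin, AHNAK, filamin A and filamin C. They were taken from the deposited table by gene symbol and hold 21 of its 24165 RefSeq entries, or 9 of its 20128 symbols. Nes and Ahnak were selected on their gene activity, as they were known to be among the most active entries, so the activities below are a description and no level was tested. The data are global run-on sequencing (GRO-seq) of C2C12, an established line of mouse myoblasts that can fuse into muscle fibres on differentiation. The line was untreated and grown to 80% confluency in medium with serum, with 4 plates for each isolation of nuclei, so the values are those of 1 line in culture and not of muscle tissue. Nuclei were left to run on with bromouridine, the labelled RNA was captured and sequenced, and each read therefore marks an RNA polymerase that was engaged on the gene. There are 2 libraries in 1 group, which the authors pooled into 1 value per entry, so that no replicate error, test or comparison between conditions could be had for any value given here.

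Gene activity is given in RPKmM, the number of reads on the sense strand per kilobase of mappable sequence and per 1000000 reads, where the stretch counted begins 1 kb after the transcription start site (TSS) and runs to the transcript end site (TES). It is a density per length and can be set side by side between genes. An entry is called active where its density passed the comparison of the authors with gene deserts, and otherwise carries the word Inactive. The depth of each library is not in the table, and values are rounded to 2 decimals.

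Intermediate filaments are flexible cytoplasmic cables built from coiled-coil proteins. Vimentin forms them in most cells of mesenchymal origin, and desmin forms them in muscle, where they tie myofibrils to one another and to the cell edge. Nestin and synemin cannot build filaments alone and assemble together with vimentin or desmin, and nestin is widely used as a mark of progenitor cells. Syncoilin binds desmin and the dystrophin-associated complex. Plectin links intermediate filaments to actin, microtubules and adhesion sites, filamins cross-link actin filaments and tie them to membrane receptors, and AHNAK is a giant scaffold protein found under the plasma membrane.

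The proximal promoters of 6 of the genes are printed because they belong to the 5 genes at the top of the order apart from Plec and to the least active gene. The reference table of promoters held 8 of the 9 genes and no entry for Plec. Each line gives the 120 bases before the RefSeq TSS, 5′ to 3′ on the strand of the gene, from the RefSeq promoter table (GRCm38.p6), and the mm9 position is that of the same letters found once in that assembly. Capitals mark the motifs searched on both strands. The GC box is GGGCGG and reads CCGCCC on the other strand. The CCAAT box reads ATTGG on the other strand. The TATA box was searched as TATAAA. The E-box is CANNTG.
Nes, chr3:87774895-87775014, plus strand: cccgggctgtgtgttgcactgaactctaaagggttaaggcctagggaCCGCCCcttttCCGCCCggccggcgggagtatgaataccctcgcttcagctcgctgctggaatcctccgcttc
Vim, chr2:13495818-13495937, plus strand: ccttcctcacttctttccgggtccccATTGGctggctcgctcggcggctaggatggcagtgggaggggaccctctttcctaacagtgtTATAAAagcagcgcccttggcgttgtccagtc
Des, chr1:75356747-75356866, plus strand: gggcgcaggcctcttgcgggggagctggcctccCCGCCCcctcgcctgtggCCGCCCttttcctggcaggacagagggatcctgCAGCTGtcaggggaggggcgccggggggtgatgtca
Ahnak, chr19:9063654-9063773, plus strand: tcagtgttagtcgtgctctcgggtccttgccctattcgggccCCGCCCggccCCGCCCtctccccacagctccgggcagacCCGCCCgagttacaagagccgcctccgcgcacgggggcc
Flna, chrX:71491874-71491993, minus strand: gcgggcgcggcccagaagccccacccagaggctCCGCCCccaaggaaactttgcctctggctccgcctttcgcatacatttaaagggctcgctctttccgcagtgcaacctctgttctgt
Synm, chr7:74904629-74904748, minus strand: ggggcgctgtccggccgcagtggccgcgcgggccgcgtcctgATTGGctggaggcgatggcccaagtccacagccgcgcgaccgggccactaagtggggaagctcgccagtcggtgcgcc

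Over the 250 bases before the TSS, the GC box was the letter pattern most of the 8 genes shared. It stood in the windows of 6 of them (Nes, Des, Sync, Ahnak, Flna and Flnc), against 32.7% of all 32851 windows of that length. The shares over all windows were not matched for GC content, which was above the median in all 8 genes, as given below. Nes had it at positions -73 and -62 from the TSS, Des at -87 and -69, Ahnak at -78, -68 and -39, and Flna at -166, -122 and -87. Vim was the only one of the 8 with TATAAA, at -32, a pattern found in 12.4% of all windows, and it also had CCAAT on the other strand at -94 and -196. CCAAT was found in 3 of the 8 genes (Vim, Synm and Flnc) and in 33.8% of all windows. The E-box, the pattern that myogenic factors such as MyoD read, was found in 3 of the 8 (Des, Sync and Synm) and in 66.2% of all windows. Des had it at -220 and -36, Sync at -20 and Synm at -193. The CArG box, read by serum response factor, was in none of the 8 windows and in 1.47% of all windows.

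The windows were rich in G and C. Their GC content ran from 58.4% in Vim and 58.8% in Nes through 63.6% in Flna, 66.4% in Ahnak and 67.2% in Des to 70% in Synm and 70.8% in Sync, against a median of 52.4% over all windows (quartiles 45.2% and 61.2%). Flnc has a pair of annotated starts, with 64% and 77.2%. The ratio of observed to expected CpG was highest in the window of Synm, at 0.752, and was 0.694 in Nes, 0.658 in Ahnak, 0.604 in Flna, 0.376 in Vim and 0.355 in Des, with a median of 0.374 over all windows. The gene with the lowest activity therefore had the highest CpG ratio of these windows. A pattern of letters is not a bound site, and its absence from 250 bases says nothing of the factor.

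By rank, these genes ran from near the top to near the bottom of the active entries. Nestin, vimentin, desmin, plectin, AHNAK and filamin A stood among the most active genes of these myoblasts, filamin C was lower but still high, syncoilin lay modestly above the typical active gene, and synemin lay at the bottom of what was called active. All 21 entries were called active, against 70.2% of all entries and 68.7% of all symbols. When each symbol was represented by its most active entry, the order was Ahnak at 237.71 RPKmM, Nes at 198.2, Vim at 146.13, Flna at 100.2, Des at 72.45, Plec at 65.38, Flnc at 14.06, Sync at 2.61 and Synm at 0.01. The place of Ahnak depends on the entry, as its other entry, at 69.96, is below Nes, Vim, Flna and Des, and Ahnak over Nes turns from 1.20 to 0.353. The median of the 9 was 72.45, against 0.87 for all active symbols (quartiles 0.22 and 2), a ratio of 83.3. Because the genes were picked with these values known, that ratio supports nothing about the class.

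**Figure D1:**
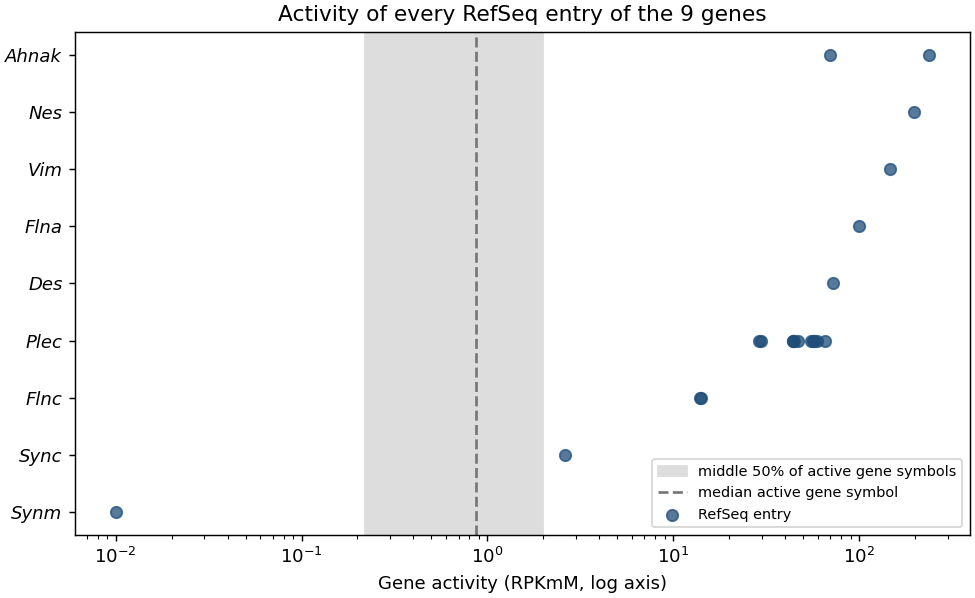
Gene activity in RPKmM on a log axis for all 21 RefSeq entries of the 9 genes, a point for each entry, with the median (0.87) and the middle 50% (0.22 to 2) of active gene symbols. Of the 9 genes, 7 lie at or above 10, Sync at 2.61 is just above the shaded range, and Synm at 0.01 is far below it.

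Of the 9 genes, 7 reached 10 RPKmM, against 1.99% of all symbols. A level of 50 was reached by 6 of the 9, against 0.278% of symbols, and 100 by 4 of the 9 (Ahnak, Nes, Vim and Flna), against 0.114%. By entry, 20 of the 21 were at 0.1 or above, against 57.2% of all entries, 19 were at 10 or above, against 2.03%, 11 at 50 or above, against 0.261%, and 4 at 100 or above, against 0.0993%. The rule used these values, so nothing is read from the counts. Of the 20 most active symbols of the table, 3 were among these genes, and of the 50 most active, 6. The entries standing next to them were of several kinds. Ahnak lay between the small nucleolar RNA host gene Snhg1 (292.85) and Hsp90ab1 (229.49), which encodes a cytosolic chaperone, and Nes lay between another host gene, Snhg12 (203.9), and Rpl3 (182.05), which encodes a ribosomal protein. Only Rn45s, Malat1, Rpl17, Neat1, Calr and Snhg1 had entries above Ahnak, with Rn45s, the ribosomal RNA precursor, at 5957.39 and Malat1, a nuclear noncoding RNA, at 910.36.

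**Figure D2:**
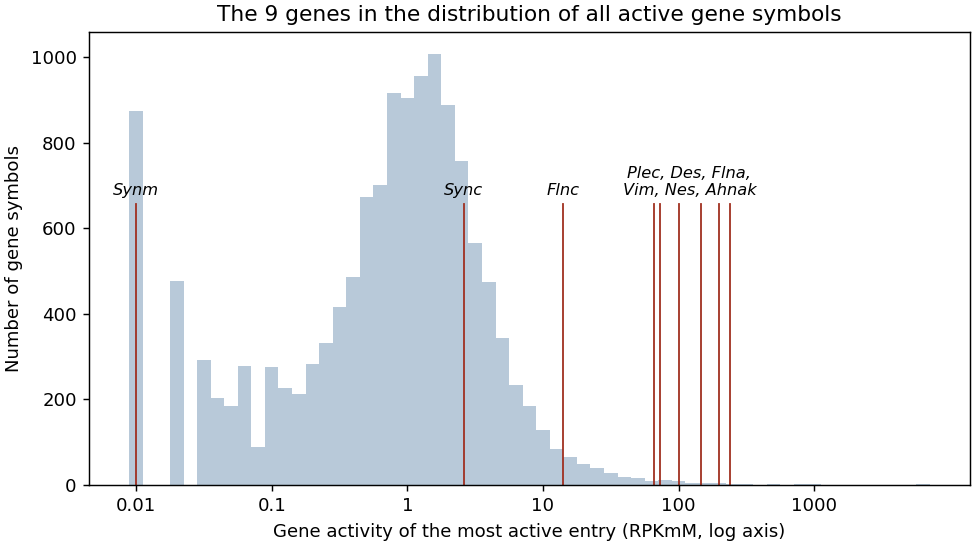
Number of gene symbols (vertical axis) by gene activity of the most active entry in RPKmM (log axis, activities above 0), with lines for the 9 genes. Ahnak, Nes, Vim, Flna, Des and Plec stand at the sparse upper end, between 65.38 and 237.71, while Synm stands in the lowest bar, at 0.01.

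Among the filament proteins, Nes had the highest activity. Its 1 entry (NM_016701) was at 198.2 RPKmM, the 12th most active of the 16957 active entries and 6th among protein-coding symbols, 228 times the median active symbol. In mm9 the gene lies on chromosome 3 (chr3:87775000-87784373, plus strand), and most of its exon sequence is 1 exon: the longest of its 4 exons spans 5031 bases, or 82.1% of exon bases. Vim (NM_011701; chr2:13495554-13504453, plus strand, 9 exons) followed at 146.13, the 16th entry and 168 times the median. Nes was 1.36 times Vim, whose product is a partner that nestin assembles with.

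Des, the filament gene of muscle, was lower than both. Its entry (NM_010043; chr1:75356904-75365154, plus strand, 9 exons) was at 72.45 RPKmM, the 41st of all entries and 83.3 times the median active symbol. Nes was 2.74 times and Vim 2.02 times Des. These are ratios of densities of engaged polymerase in pooled libraries, and whether they exceed the spread between the 2 libraries cannot be told.

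The remaining filament genes were far lower. Sync (NM_023485; chr4:128964861-128985803, plus strand, 5 exons) was at 2.61 RPKmM, above 81.7% of active entries and 3 times the median active symbol, so that Des was 27.8 times Sync. Synm (NM_201639; chr7:74875047-74904628, minus strand) was listed at 0.01, a value that stands for anything from 0.005 to 0.015. Only 0.908% of active entries were lower, all of them listed at 0, and 1032 entries shared the value of 0.01. With this rounding Des was between 4830 and 14490 times Synm. Synemin and syncoilin, both partners of desmin, thus differed from desmin by very different factors in these cells. In a bulk sample, fewer cells transcribing a gene and less transcription in each cell cannot be told apart.

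Plec had 11 entries, all active, with ranks from 47 to 126. The most active was NM_201394 at 65.38 RPKmM, followed by NM_201393 at 59.56, NM_201392 at 57.18, NM_001163549 at 56.32 and NM_201390 at 54.97. A middle group held NM_001163540 at 46.85, NM_001164203 at 44.61, NM_201387 at 44.15 and NM_201386 at 43.93, and NM_201385 (29.84) and NM_001163542 (28.91) were the lowest. The entries thus formed 3 steps and covered a 2.26-fold range. Plectin transcripts differ mainly in the exon they start from and share their end, so the entries count many of the same reads and are not replicates.

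The deposited table gives no coordinates for its entries. In the GENCODE annotation of mm9, Plec (chr15:76001404-76063004, minus strand) has 11 separate starts of full-length coding transcripts with a common end, at positions between 76026140 and 76061808, with gene bodies from 23.7 to 59.4 kb, a 2.50-fold range. When the entries were paired with these starts by rank, the highest activity with the shortest body, the product of activity and body length ran only from 1552 to 1717 reads per 1000000 reads (RPM), a 1.11-fold range. The pairing is by rank and not by identifier. Matching the highest activity to the shortest body builds in an inverse order and also keeps the products as alike as a pairing can. The narrow range therefore does not test the pairing. With this pairing, the 23.7 kb shared by all transcripts had a density of 65.38 RPKmM. The 35.7 kb that the longest body adds upstream had 4.64, so that the shared stretch was 14.1 times denser. By steps, the first 13.5 kb added had 6.10 and the next 22.2 kb had 3.76. The added densities come from small differences between products and take every base as mappable, so they are rough. Products of this kind cannot hold exactly for Ahnak on its first reading, described below. On this pairing most of the engaged polymerase counted for Plec lay downstream of its most proximal start.

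**Figure D3:**
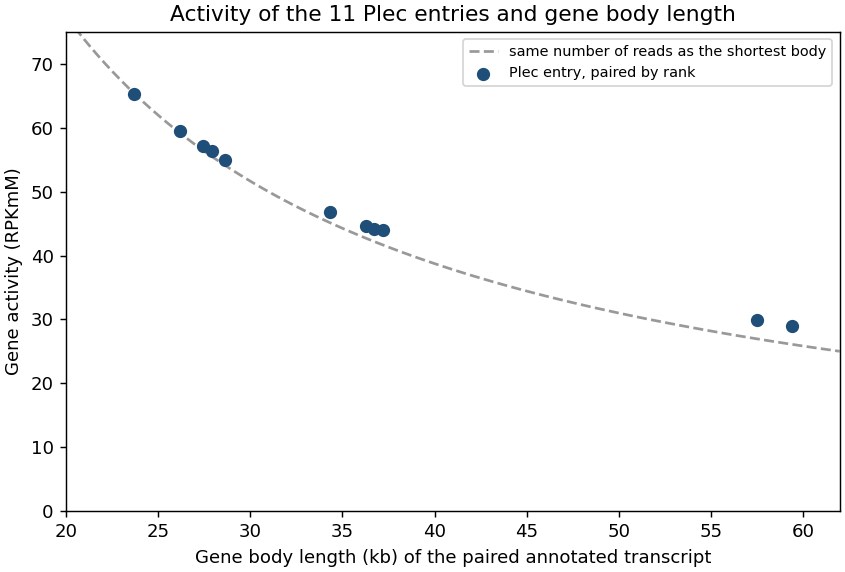
Gene activity in RPKmM of the 11 Plec entries against the gene body length in kb of the annotated transcript paired with each by rank, a point for each entry. The dashed line shows a constant number of reads, fixed at the shortest body (23.7 kb, 65.38 RPKmM), and the points stay close to it, with products from 1552 to 1717 RPM. The pairing by rank favours this closeness.

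Ahnak had a pair of entries that were further apart. NM_009643 was at 237.71 RPKmM, the 7th of all entries, 3rd among protein-coding symbols and 273 times the median active symbol, while NM_001039959 was at 69.96, the 43rd, a 3.40-fold difference. The annotation on chromosome 19 (chr19:9063750-9151409, plus strand) holds a transcript of 29.9 kb with an exon of 17497 bases, which is 96.7% of its exon sequence and 60.5% of its gene body of 28.9 kb. It also holds a transcript of 87.7 kb with 7 short exons totalling 1212 bases, whose body of 86.7 kb is 3 times as long. Which entry belongs to which is not stated in the table. If the higher value belongs to the shorter transcript, the bodies hold 6873 and 6062 RPM, a ratio of 1.13. Since the longer stretch contains the shorter, its number cannot be the smaller, so the assumed ends or the assumption that all bases are mappable cannot hold exactly. With the entries exchanged, the longer body would hold 20598 RPM, the shorter 2023, and the stretch outside the shorter body would have a density of 322 RPKmM. The lower of the Ahnak values, at 69.96, is still 80.4 times the median active symbol.

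Filamin A and filamin C differed from one another more than the leading filament proteins did. Flna, the filamin of most cell types (NM_001290421; chrX:71468800-71495159, minus strand, 47 exons), was at 100.2 RPKmM, the 24th entry and 115 times the median active symbol. That span is the GENCODE gene, and the RefSeq TSS of the printed promoter, at 71491873, lies inside it. Flnc, the filamin of muscle, where it lies at Z-discs (chr6:29383153-29411888, plus strand, 48 exons), had entries at 14.06 (NM_001311074) and 13.95 (NM_001081185), which differ by less than 1% and count nearly the same stretch. Flna was thus 7.13 times Flnc. Neither filamin of the 9 has a dominant exon, the longest being 598 bases in Flna (7.07% of exon bases) and 867 in Flnc (9.46%), unlike Nes, Ahnak and Synm, whose longest exons hold 82.1%, 96.7% and 85.8%.

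A density does not show how many reads stand behind a gene, so activity was multiplied by the length of the gene body, on the assumption that every base is mappable, which gives RPM. Ahnak had most, with 6873 RPM in its gene body on the first reading above, followed by Flna with 2541, Plec with 1717 (its least active entry on the longest body), Nes with 1657, Vim with 1151, Des with 525, Flnc with 390 and Sync with 52.1. Synm had 0.286, or 0.143 to 0.429 by rounding, and 0.0943 with a shorter annotated body of 9.43 kb. Flna and Plec stood higher in this order than by density, and Nes, Vim and Des stood lower, while Ahnak, Flnc, Sync and Synm kept their places. The most active Plec entry on the shortest body gives 1552, which is below Nes. A shorter annotated Flna body of 22 kb gives 2206 RPM, which is still above Plec. The median over 10142 active genes with 1 entry and a known length was 15.7, so Ahnak had 437 times the typical number, and no gene among them had more, the highest being Malat1 with 5446. Set against the same genes, Flna would rank 11, Plec 18, Nes 19, Vim 34, Des 160, Flnc 256, Sync 2772 and Synm 9321.

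The 9 genes together held 14906 RPM, or 1.49% of the reads used for scaling, of which Ahnak alone held 0.687 percentage points. Ahnak had 46.1% of their total, Flna 17%, Plec 11.5%, Nes 11.1%, Vim 7.72%, Des 3.52%, Flnc 2.62% and Sync 0.350%. With the Ahnak entries exchanged the share would be 2.86%. Among the 6581 symbols of at least 20 kb, whose median activity was 0.960 RPKmM, Ahnak ranked 1, Flna 2, Plec 5, Flnc 54, Sync 1125 and Synm 6075. Ahnak, Flna and Plec were thus near the top of the long genes by density, while Ahnak was 16.9 times Flnc, a description of genes picked with their activities known.

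The genes next to them were ordinary in activity. For each gene the nearest annotated gene on either side that does not overlap it was looked up. This gave 18 neighbours, of which 13 were active (72.2%, against 68.7% of all symbols). The active neighbours ran from 0.01 to 3.9 RPKmM with a median of 1.55. The high activity of Vim, for instance, stood beside Trdmt1 at 0.36, 29.3 kb upstream, and the inactive St8sia6 downstream, a 406-fold difference from its active neighbour. Nes stood 79.0 times above Crabp2 (2.51), which lies 17.7 kb upstream on the same strand, and beside the inactive Bcan. Ahnak stood 61.0 times above Eef1g (3.9), 10.8 kb upstream on the same strand, and beside the inactive Scgb1a1.

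Des stood 52.9 times above Dnpep (1.37) and 22.2 times above Speg (3.27), a muscle kinase gene on the same strand 6.72 kb downstream. Flna stood 34.2 times above Emd (2.93), which encodes the nuclear envelope protein emerin and lies 4.87 kb upstream, and beside the inactive Tktl1. Plec stood 17.3 times above Grina (3.77) and far above BC024139 (0.01). Flnc stood 12.6 times above Ccdc136 (1.12) and 9.07 times above Atp6v1f (1.55), on either side of it on the same strand. At the lower end, Sync was close to C77080 (2.3) upstream and 3.53 times Zbtb8os (0.74) downstream, and Synm was below its active neighbour Ttc23 (0.52), with 4833412C05Rik inactive.

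Within 100 kb, no other gene reached Nes, Vim, Des, Plec, Ahnak or Flna. The most active in these stretches were Isg20l2 (9) by Nes, Trdmt1 (0.36) by Vim, Speg (3.27) by Des, Puf60 (4.15) by Plec, Mta2 (4.03) by Ahnak and Atp6ap1 (9.64) by Flna. Around Flnc, Calu (23.58), which encodes a calcium-binding protein of the secretory pathway, was above it, and around Sync, Rbbp4 (2.83) was. Around Synm, 2 active genes were above it, with Ttc23 (0.52) the higher. Some genes overlap: Rbbp4 and Sync share 1460 bases on opposite strands, Gm15179 (0.05) and Des share 368 bases on opposite strands, and Parp10 (0.34) and Plec share 1401 bases on the same strand. Only sense reads were counted, so of these only the Parp10 stretch can hold reads counted for both genes.

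**Figure D4:**
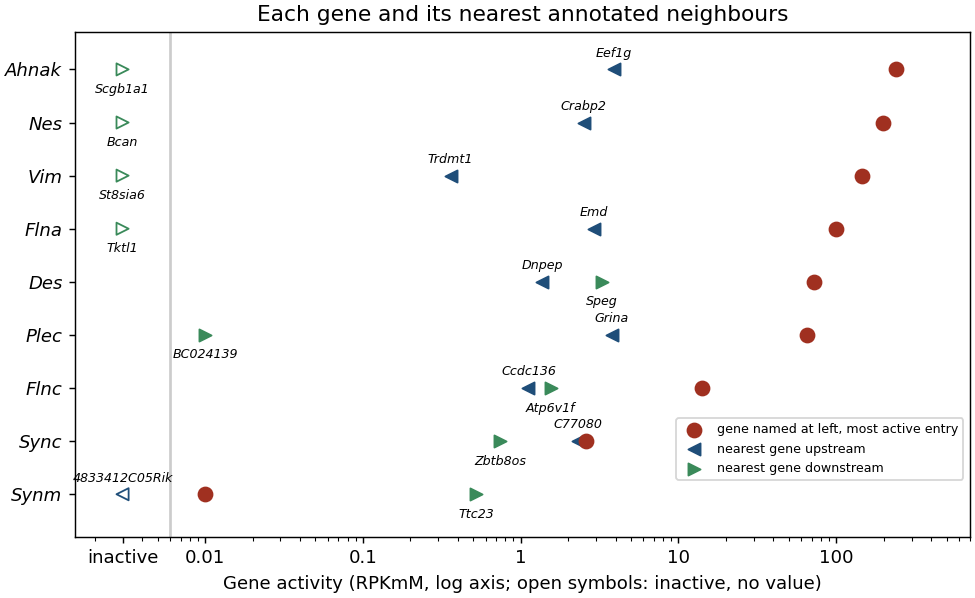
Gene activity in RPKmM (log axis) of each of the 9 genes (circles, most active entry) and of the nearest annotated gene upstream and downstream (triangles), with inactive neighbours as open triangles at the left. The 13 active neighbours lie between 0.01 and 3.9, below the matching circle for every gene except Synm. Overlapping genes are not drawn, among them Rbbp4 (2.83), which was above Sync.

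Related genes were then read from lists. Of 10 other intermediate filament genes, 7 were active (70%, against 68.7% of all symbols), with a median of 1.43 RPKmM over the active ones and a range from 0 to 15.13. The highest were the neurofilament genes Nefm (15.13) and Nefl (8.43), whose products build the filaments of axons, while Nefh, Ina and the lens filament gene Bfsp2 were inactive. Iffo1 was at 3.54, Iffo2 at 1.43, Prph at 0.02 and the astrocyte filament gene Gfap at 0.01, and Bfsp1 was listed at 0. Nes was 13.1 times Nefm, and only Nefm of these 10 was above 10, so Nes, Vim and Des were all higher than every one of them and Synm was as low as Gfap.

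Of 8 plakins and other giant linkers, 7 were in the table and 6 were active (85.7%, against 68.7% of all symbols), with a median of 1.6 and a range from 0.02 to 7.97. The highest were the spectraplakins Macf1 (7.97) and Dst (5.62), which link actin to microtubules, followed by Utrn (2.78), the dystrophin relative. Eppk1 was at 0.42. The plakins of epithelial junctions and cornified envelopes were low or inactive, with Evpl at 0.03, Ppl at 0.02 and Dsp inactive. None of these reached 10, and the lowest Plec entry, at 28.91, was above all of them.

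Of 30 binding partners, 29 were in the table and 27 were active (93.1%, against 68.7% of all symbols), with a median of 1.42 and a range from 0.03 to 36.72, and 5 reached 10, against 1.99% of all symbols. These 5 were Zyx (36.72), which encodes the focal adhesion protein zyxin, S100a10 (19.85) and Anxa2 (10.43), whose products form the complex that binds AHNAK at the membrane, Itgb1 (13.99), an integrin whose tail binds filamins, and Actn1 (11.97), an actin cross-linker. Talin 1 and vinculin, also of adhesion sites, had values of 9.17 (Tln1) and 7.66 (Vcl). Of the 27 active ones, 17 were at or above the median active symbol, which by definition splits all active symbols evenly. Among partners known from muscle, Fhl3 was at 8.12, Fhl1 at 4.31, Fhl2 at 2.69, Ldb3 at 2.31, Actn3 at 1.88, Xirp1 at 0.65, Xirp2 at 0.45, Myoz2 at 0.09, Myoz1 at 0.08, Nebl at 0.05 and Actn2 at 0.04, and Myot and Myoz3 were inactive. Cryab, which encodes a chaperone of desmin, was at 1.42, Dtna, whose product binds syncoilin, at 1.27, and Itgb4, which anchors plectin in hemidesmosomes, at 0.03. The lists were drawn up with results of these data known, and their counts and medians describe them without a test.

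**Figure D5:**
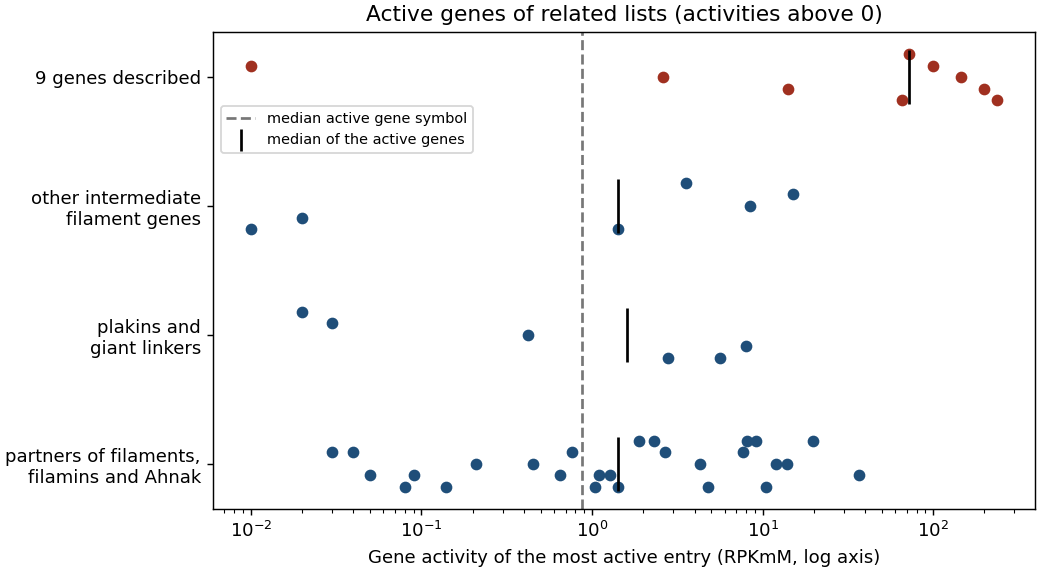
Gene activity in RPKmM (log axis) of the most active entry of each active gene above 0, in rows for the 9 genes and for the lists of other intermediate filament genes, plakins and giant linkers, and binding partners. Black bars mark each list's median over all its active genes (72.45, 1.43, 1.6 and 1.42), which for the other intermediate filament genes includes Bfsp1, listed at 0 and not drawn. The dashed line is the median active symbol (0.87), and vertical scatter within a row has no meaning.

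The labelled cell type was checked against markers. All 5 myoblast markers apart from Des, which is among the 9 genes, were active, with Myod1 at 2.39 RPKmM, Myf5 at 5.03, Cdh15 at 8.08, Chrna1 at 15.62 and Myog, which rises on differentiation, at 2.39. Of the markers of other cells, 1 of 4 of simple epithelium was active (Cdh1 at 0.02, with Krt8, Krt18 and Epcam inactive). So was 1 of 3 of endothelium (Pecam1 at 0.01). Of the leukocyte markers, Ptprc was inactive and Cd68 has no entry. Among those of neurons and glia, Tubb3 was at 6.01, Gfap at 0.01 and Rbfox3 inactive. The markers of epithelium, endothelium and leukocytes with an entry were thus inactive, which carries no value, or at 0.02 or below. Among genes known from neurons, Tubb3 and the neurofilament genes Nefm (15.13) and Nefl (8.43) were well above the median active symbol. Their part in the activities of Nes and Vim was not tested.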

How the data were processed

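GRO-seq was performed on 2 libraries of C2C12 myoblasts. Per the submitters' processing notes and the methods, reads were base called with CASAVA 1.8 and mapped to mm9 with Bowtie2. Reads that failed were trimmed and remapped, uniquely mapped reads were kept, reads at rRNA and tRNA repeats were removed, and the libraries were pooled. The authors deposited 1 table of RPKmM values, a score per RefSeq entry that was read here as RPKM over mappable bases on the basis of the column name and the methods, or the word Inactive (7208 cells). Pooling hides the spread between libraries, unique mapping can lower the count over repeats within a gene, and values at the low end are coarse because only 2 decimals were kept. The number of reads per library is not in the table, and counting error was not computed. The study calls the libraries biological replicates, and no value of either was used here.

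The members and lists were chosen with earlier results of these data known. All 9 genes are named. From the lists, the flanking genes and the markers any gene could be named, together with the entries next in activity to Ahnak and Nes, and, chosen after their values were seen, the other entries above Ahnak, the genes that overlap a member and the most active gene within 100 kb of each. A gene of the linker list is not reported here and was left out of its counts. For levels and ranks, a symbol was represented by its most active entry. Gene models were those of GENCODE vM1 (NCBIM37, the same assembly as mm9). Length was that of the coding transcript with most exon bases, except that reads in Plec were computed from its least active entry and longest coding transcript. The gene body left out the first kb after the TSS and ended at the TES. Plec entries were paired with annotated starts by rank. Promoters of 8 genes came from the RefSeq promoter table and were located in mm9 by exact match. Calculations used Python 3.11.15, numpy 2.4.6, pandas 2.3.3 and matplotlib 3.10.9 and were tested on simulated data. The alternatives were a threshold of 0.1 for active, another entry per symbol, a geometric mean with a pseudocount of 0.01, other sets for ranking and another annotated transcript. The column of gene activity was the only one used.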

Additional observations from a re-analysis of the deposited data

How the results depend on the processing

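Of 61 alternative values, 48 stayed within 1.5 times the main value, or within 1 percentage point for a rank, 11 moved further and 2 reversed. Counting 1 entry per symbol changed the number of active entries from 21 to 9 by construction. A geometric mean with a pseudocount of 0.01 in place of the median lowered the centre of the 9 genes from 72.45 to 23.7, since it gives weight to Synm. With inactive entries ranked below active ones, the percentile of Synm rose from 0.908 to 30.5 and that of Sync from 81.7 to 87.2. Another annotated transcript changed RPM from 6873 to 20598 for Ahnak, from 0.286 to 0.0943 for Synm and from 14906 to 28119 for the sum. A threshold of 0.1 left 4 of the 7 active filament genes outside the 9, and the least active entry per symbol lowered their median from 1.43 to 0.74. With least active entries, an alternative chosen after seeing the data, Ahnak over Nes fell from 1.20 to 0.353 and Ahnak over Vim from 1.63 to 0.479, both reversed, while Des over Plec was 2.51 in place of 1.11 and Plec over Flnc was 2.07 in place of 4.65. Taking the longest entry per symbol was not run, since the table holds no lengths. No number of reads is in the table, and counting error was not computed for the lowest values, Synm above all. No paired analysis was possible because there is 1 group and the pooled column carries no replicate.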
